A study of Arabidopsis thaliana with 9 samples.

Results

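The rows described here are the genes of the Arabidopsis thaliana mitochondrial genome, chosen as every row of the deposited expression tables whose gene identifier starts with ATMG. They number 146 of 33602 rows. RNA sequencing gave their transcript levels in 9 libraries of seedlings. The seedlings were 9 days old, and the growth medium held 2% sucrose. The libraries form 3 groups of 3. OE2 and OE1 are labelled as overexpressing CsGSTF1, a glutathione S-transferase gene of tea, and tt19-8 is labelled as a knock-out of tt19. The labels give neither the promoter that drives CsGSTF1 nor the genetic background of OE2 and OE1, and the title of the series speaks of rescuing tt19-8. Nothing states that libraries of the same group had separate plant material, so p-values measure only the spread between these libraries.

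Plant mitochondria keep a small genome of their own. It encodes subunits of the respiratory chain complexes and of ATP synthase, proteins that mature cytochrome c, some ribosomal proteins, ribosomal and transfer RNAs, and many open reading frames of unknown function. Its transcripts are made by nuclear-encoded phage-type RNA polymerases, and many are edited and spliced by nuclear-encoded factors. In Arabidopsis a long insertion of mitochondrial DNA lies near the centromere of nuclear chromosome 2, so many mitochondrial genes have a nuclear copy.

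The values are FPKM (fragments per kilobase and per library total, scaled). They summed to 867529 to 912535 per library in OE2, 1032370 to 1079857 in OE1 and 1056688 to 1096075 in tt19-8. Every OE2 library thus had a lower sum than every OE1 and tt19-8 library, which bears on comparisons of FPKM as deposited. Depth is not given. Among low values of single-exon genes, those worth 0.5 to 30 fragments, 47.3% to 51.7% lay within 0.05 of a whole fragment in each library of OE1 and tt19-8. The steps between them put the total at 48.6 M to 54.8 M fragments in OE1 and 48.8 M to 57.5 M in tt19-8. For a gene of 1 kb, 3 fragments were thus worth between 0.0522 and 0.0618 FPKM, a floor for counting error alone. In OE2 libraries 11.9% to 13.2% of such values lay that close, and their depth is unknown. TT19 (AT5G17220) itself was at 0.674 to 0.876 FPKM in OE2, 0 to 0.0769 FPKM in OE1 and 0 to 0.113 FPKM in tt19-8. The labels do not say how RNA was selected for the libraries, so a share of FPKM here is not a share of cellular RNA.

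Same-numbered libraries of OE2 and OE1 stood together. Across all tested genes, the deviations of the libraries from their group means correlated at 0.953, 0.959 and 0.957 for replicates 1, 2 and 3 of OE2 with the same replicate of OE1. OE2 and OE1 are therefore described apart, and their comparisons with tt19-8, which also share the tt19-8 libraries, are not independent of each other.

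The files give identifiers without names. The TAIR10.1 annotation lists mitochondrial genes under other identifiers, but the notes of nuclear loci name 53 of the 146 ATMG identifiers, in 55 pairs of an identifier and a nuclear locus. All 55 loci were on chromosome 2, 54 of them between positions 3239693 and 3503476. In all 55 the best match to the RefSeq mitochondrial genome was at least 99% identical, and in 52 it also covered at least 90% of the locus. Seen from the mitochondrial side, 22 of 33 protein-coding genes matched nuclear DNA over at least 99% of their coding bases, 17 of them over 100%, and 8 matched over less than 50%. Names below come from these notes, or from the RefSeq mitochondrial gene whose sequence lies in the nuclear locus. The other 93 identifiers are given without name or role.

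The 60 bases shown here, from RefSeq TAIR10.1, let the likeness be seen in an identical pair and in a pair with differences. They are the start of cob, the apocytochrome b gene, at chrMT:182799-182858 on the reverse strand and its copy at chr2:3450863-3450922 on the forward strand, and a stretch of rpl2, a ribosomal protein gene, at chrMT:222062-222121 on the reverse strand and its copy at chr2:3411669-3411728 on the forward strand. Capitals mark the bases that differ between the mitochondrial and the nuclear sequence.

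cob mitochondrion: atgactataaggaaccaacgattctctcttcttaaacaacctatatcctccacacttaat

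cob copy chromosome 2: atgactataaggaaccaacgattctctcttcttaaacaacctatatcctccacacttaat

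rpl2 mitochondrion: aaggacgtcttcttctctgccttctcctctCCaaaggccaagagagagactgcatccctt

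rpl2 copy chromosome 2: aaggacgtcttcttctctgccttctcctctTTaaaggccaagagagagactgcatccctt

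The cob sequences were the same at every base shown. The rpl2 sequences differed at 2 of the bases shown, and at 3 of 917 over the longest coding part of the gene. The mitochondrial sequence on which the deposited values were made was not used here. How fragments that match both genomes were assigned is not given in the sources used here, so the level of an ATMG row with such a copy is uncertain.

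Most mitochondrial rows were near or at 0. Of the 146 rows, 45 were listed at 0 in every library and 109 stayed below 1 FPKM in every library. Mean levels over the 9 libraries reached at least 1 FPKM in 29 rows, at least 5 FPKM in 11 and at least 10 FPKM in 6. The test took rows that reached 1 FPKM in 3 or more libraries, which were 31 members. The other 115 were not tested, and 70 of these were above 0 in a library. Just inside that limit, the third-highest value was 1.22 FPKM for ATMG01370, 1.05 FPKM for ATMG00630 and 1.02 FPKM for ATMG01220. Just outside it was 0.771 FPKM for ATMG01080, 0.740 FPKM for ATMG01200 and 0.739 FPKM for ATMG00170.

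Few identifiers carried most of the mitochondrial signal. ATMG00020 and ATMG01390 together held 66.9% to 72.7% of the summed mitochondrial FPKM in OE2, 64.6% to 70.2% in OE1 and 56.9% to 72.3% in tt19-8. ATMG00020, the highest row, had 176, 287 and 243 FPKM in OE2 replicates 1, 2 and 3, 187, 305 and 259 FPKM in OE1, against 590, 350 and 131 FPKM in tt19-8. The OE2 and OE1 libraries lay between the tt19-8 libraries: tt19-8 replicates 1 and 2 were above all 6 of them and replicate 3 was below all 6. ATMG01390 had 87.9, 162 and 111 FPKM in OE2, 101, 190 and 129 FPKM in OE1, against 239, 139 and 61.2 FPKM in tt19-8. Again the highest and the lowest of the 9 values were both tt19-8 libraries.

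ATMG00030 had 46.1, 54.9 and 57.3 FPKM in OE2, 52.0, 62.6 and 65.8 FPKM in OE1, against 66.0, 45.7 and 38.8 FPKM in tt19-8. The groups overlapped, with the highest and lowest values again in tt19-8. ATMG00060 had 16.3, 24.5 and 17.7 FPKM in OE2, 20.7, 31.1 and 22.4 FPKM in OE1, against 43.3, 39.4 and 15.96 FPKM in tt19-8. Replicates 1 and 2 of tt19-8 were the highest of the 9 libraries and replicate 3 the lowest. ATMG00160 had 9.73, 11.0 and 17.9 FPKM in OE2, 14.0, 16.2 and 26.3 FPKM in OE1, against 22.3, 18.5 and 9.52 FPKM in tt19-8. All 3 groups overlapped.

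ATMG00665 had 5.94, 12.7 and 1.60 FPKM in OE2, 5.62, 16.1 and 1.66 FPKM in OE1, against 40.3, 35.4 and 7.90 FPKM in tt19-8. Replicate 3 was the lowest library of every group, and the groups overlapped. ATMG01130 had 5.07, 5.85 and 6.002 FPKM in OE2, 6.48, 7.62 and 7.96 FPKM in OE1, against 16.6, 10.3 and 6.72 FPKM in tt19-8. All OE2 libraries were below all tt19-8 libraries, while OE1 and tt19-8 overlapped.

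ATMG00660 had 5.77, 3.54 and 6.49 FPKM in OE2, 8.24, 4.78 and 9.29 FPKM in OE1, against 9.46, 9.60 and 7.57 FPKM in tt19-8. ATMG01170 had 6.003, 5.35 and 4.48 FPKM in OE2, 8.58, 7.70 and 6.43 FPKM in OE1, against 7.56, 7.26 and 7.59 FPKM in tt19-8. In both rows OE2 lay below tt19-8 in every library, and OE1 overlapped tt19-8. ATMG00560, linked to the ribosomal protein gene rpl2, had 3.54, 4.74 and 3.75 FPKM in OE2, 4.18, 5.63 and 4.39 FPKM in OE1, against 13.9, 8.62 and 4.05 FPKM in tt19-8. Here tt19-8 replicates 1 and 2 were the highest libraries, and replicate 3 lay among those of OE2.

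**Figure D1:**
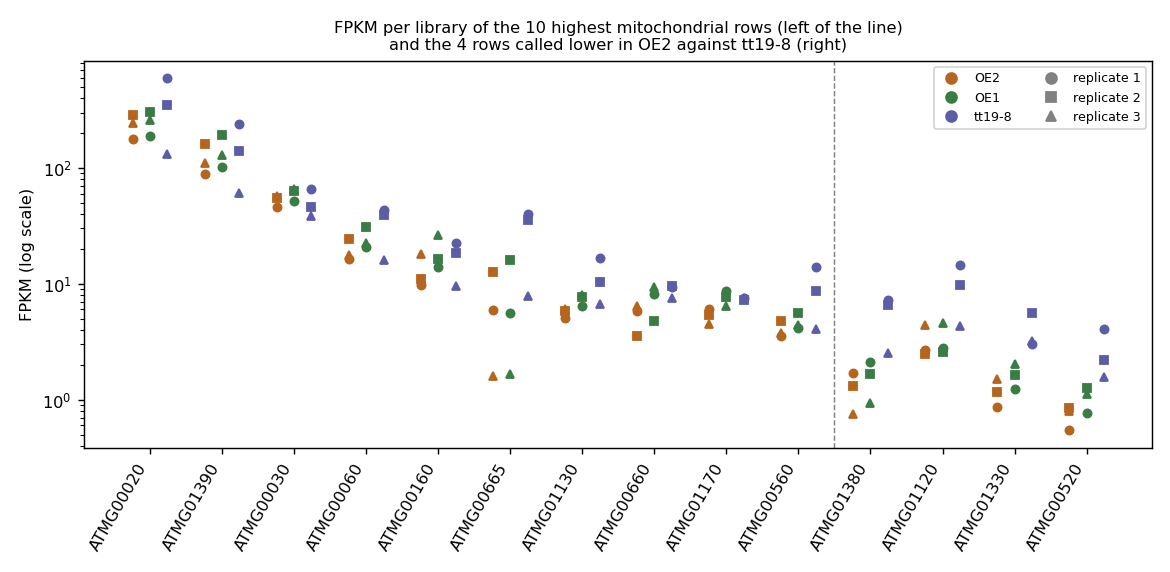
FPKM of single mitochondrial rows on a log axis, 1 point per library, with colours for OE2, OE1 and tt19-8 (left to right in each row) and shapes for the replicate. Left of the dashed line are the 10 rows with the highest mean and right of it the 4 called lower in OE2 against tt19-8; ATMG00020 runs from 131 to 590 FPKM, with both ends in tt19-8.

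Rows that could be tied to respiratory chain subunits were low in all groups. Only rows whose identifier is named in the note of a nuclear locus could be tied to a gene. Subunit genes with little nuclear match, such as cox1 (3.283% of coding bases) and nad9 (18.15%), were tied to no row. Their levels are therefore not known here. In complex I, the NADH dehydrogenase, ATMG01320 (NADH dehydrogenase 2B) had 0.590, 0.377 and 0.526 FPKM in OE2, 0.654, 0.417 and 0.579 FPKM in OE1, against 0.714, 0.975 and 0.184 FPKM in tt19-8. ATMG01275 (NADH dehydrogenase 1A) averaged 0.333 FPKM and ATMG00990 (nad3) 0.0347 FPKM over the 9 libraries. For complex III, which passes electrons to cytochrome c, ATMG00220 (cob) averaged 0.0220 FPKM and ATMG00590 (a cytochrome b/b6 protein) 0.0215 FPKM. For complex IV, cytochrome c oxidase, ATMG01280 (a subunit II-like protein) averaged 0.288 FPKM and ATMG00730 (cox3) 0.0238 FPKM. None of these passed the filter, so none was tested.

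ATP synthase, complex V, makes ATP from the proton gradient. Its row ATMG01080 (atp9) had 0.222, 0.771 and 0.541 FPKM in OE2, 0.327, 1.13 and 0.797 FPKM in OE1, against 0.153, 0.203 and 0.621 FPKM in tt19-8. ATMG00410 (atp6) had 0.565, 0.418 and 0.603 FPKM in OE2, 0.686, 0.508 and 0.732 FPKM in OE1, against 0.292, 0.124 and 0.579 FPKM in tt19-8. The groups overlapped in both rows. Every OE2 and OE1 value of ATMG00410 was above tt19-8 replicates 1 and 2, and only tt19-8 replicate 3 lay among them. ATMG01090 (a row also described as ATP synthase subunit 9) averaged 0.232 FPKM, and these rows were not tested.

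Among proteins of cytochrome c maturation, ATMG00960 (linked to ccmFN2) averaged 0.0919 FPKM, ATMG00180 0.0300 FPKM, and ATMG00900 (ccmC) was listed at 0 in every library. The ribosomal protein genes rps3 and rpl16, matched to nuclear DNA over 12.21% and 40.56% of coding bases, were tied to no row. Named ribosomal protein rows other than rpl2 were similarly low: ATMG00980 (rps12) averaged 0.158 FPKM and ATMG00290 (rps4) 0.0443 FPKM. Such levels stand for few fragments. For 10 of 13 members with 1 coding part, FPKM multiplied by coding length and by the total from the steps gave whole fragments, within 0.05, in all 6 libraries of OE1 and tt19-8. The sum over these 6 libraries was 31 fragments for ATMG01190 (atp1), 28 for ATMG00480 (atp8), 10 for ATMG00220, 3 for ATMG00990 and 0 for ATMG00900. ATMG00480 had 3, 1 and 0 fragments in OE1 replicates 1, 2 and 3, against 9, 9 and 6 in tt19-8, and ATMG01190 had 8, 7 and 8 in OE1, against 2, 2 and 4 in tt19-8. The groups did not overlap in either row, with OE1 lower in ATMG00480 and higher in ATMG01190. Both rows were picked out after their values were seen, and both were below the filter of the test. Without the filter, 6 of 101 members were called lower in OE2 against tt19-8. Beside them, 2266 of 25417 genes were called lower, and 12.9% of all genes in either direction. ATMG00480 was among the 6 (-0.33 ± 0.072 on the log2(FPKM + 1) scale, SE, limma, adjusted p = 0.0275). ATMG01190 did not pass there (limma, adjusted p = 0.117 in OE2 and 0.207 in OE1 against tt19-8).

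Members with a named nuclear copy had the lower median level. The 53 rows named beside a nuclear locus had a median mean of 0.0300 FPKM, and 48 of them stayed below 1 FPKM in every library. The 93 other rows had a median mean of 0.115 FPKM, and 61 of them stayed below 1 FPKM. Of the 31 members tested, 3 had a named copy and 28 had none. These counts are descriptions, since the rows share libraries and the notes do not cover every copy.

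Reads were listed on the nuclear copies too. In the 55 pairs, the mean level of the nuclear locus was above that of the mitochondrial row in 24, below it in 25, and both were at 0 in 6. ATMG01180 was listed at 0 in all 9 libraries, while AT2G07667, the nuclear locus whose note names it and which matches the mitochondrial genome at 100% over 2366 bases, had 0.771, 3.67 and 2.73 FPKM in OE2, 0.958, 4.59 and 3.40 FPKM in OE1, against 6.72, 18.1 and 6.06 FPKM in tt19-8. Every OE2 and OE1 library was below every tt19-8 library. On the log2(FPKM + 1) scale AT2G07667 was lower in OE2 than in tt19-8 by a difference of -1.69 ± 0.50 (SE; limma, Benjamini-Hochberg adjusted p = 0.0406). The difference was -1.53 with median-ratio scaling (limma, adjusted p = 0.0706) and -1.49 with scaling to the sum of nuclear genes (limma, adjusted p = 0.0843), so it no longer passed. ATMG00730 (cox3) averaged 0.0238 FPKM beside 2.25 FPKM for AT2G07687, and ATMG00220 (cob) 0.0220 FPKM beside 0.351 FPKM for AT2G07727. The order was the other way round for rpl2, with 5.87 FPKM for ATMG00560 beside 0.959 FPKM for AT2G07715.

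**Figure D2:**
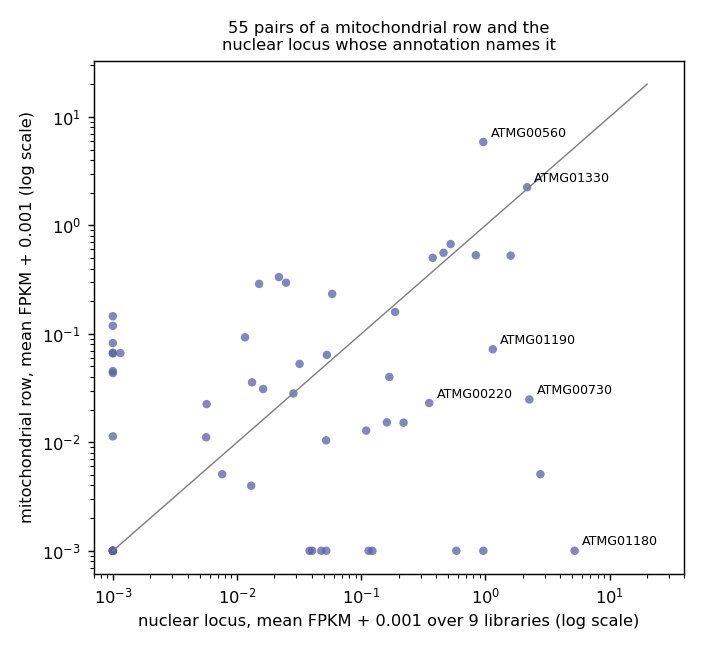
Mean FPKM over the 9 libraries of each mitochondrial row (vertical) against that of the nuclear locus whose note names it (horizontal), both plus 0.001 on log axes; each point is 1 of 55 pairs and the line marks equal levels. The pairs spread to both sides of the line, with 24 nuclear means above and 25 below.

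Across whole libraries, the mitochondrial share of summed FPKM did not separate the groups. It was 0.0440%, 0.0712% and 0.0567% in OE2, 0.0418%, 0.0684% and 0.0545% in OE1, and 0.108%, 0.0684% and 0.0320% in tt19-8. The highest and the lowest of the 9 shares were both in tt19-8, and all groups overlapped. The share averaged 0.0573% ± 0.0136 in OE2, 0.0549% ± 0.0133 in OE1 and 0.0694% ± 0.0379 in tt19-8 (SD, n = 3 each). In two-sided exact permutation tests, for which the smallest p with 3 libraries against 3 is 0.1, p was 0.8 for OE2 against tt19-8, 0.7 for OE1 against tt19-8 and 0.7 for OE2 against OE1. Adjusted over the 3 comparisons (Benjamini-Hochberg), each exact p was 0.8. These tests did not use the pairing of OE2 with OE1 by number. In each same-numbered pair the OE2 share was above the OE1 share. The difference from tt19-8 was -0.0121 percentage points for OE2 and -0.0145 for OE1. Without tt19-8 replicate 1 it had the other sign, 0.0071 for OE2 and 0.00467 for OE1.

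The share without ATMG00020 and ATMG01390 averaged 0.0173% ± 0.00249 in OE2, 0.0179% ± 0.00287 in OE1 and 0.0225% ± 0.00813 in tt19-8 (SD, n = 3 each), with exact permutation p of 0.4 for OE2 and 0.5 for OE1 against tt19-8. The 133 chloroplast rows, measured in the same way, made up 0.0452% ± 0.0132 of FPKM in OE2, 0.0445% ± 0.0142 in OE1 and 0.0417% ± 0.00962 in tt19-8. For both organelles, replicate 2 was the highest library of OE2 and of OE1, and replicate 1 the highest of tt19-8. In these bulk samples, fewer cells of a type and less RNA per cell cannot be told apart.

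**Figure D3:**
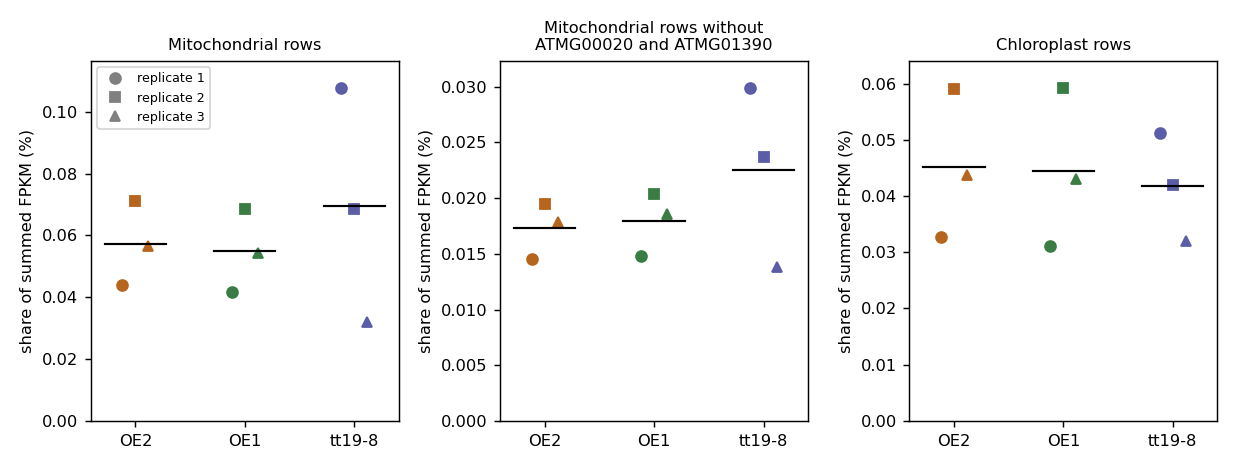
Share of summed FPKM in percent held by all mitochondrial rows (left), by mitochondrial rows without ATMG00020 and ATMG01390 (middle) and by chloroplast rows (right) in OE2, OE1 and tt19-8. Each point is a library, shaped by replicate, and bars are group means; for all mitochondrial rows the tt19-8 libraries run from 0.0320% to 0.108%.

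Against tt19-8, 4 members were lower in OE2 and none was higher. These 4 of 31 tested rows stand beside 19.0% of all tested genes called, 14.5% lower and 4.5% higher, so the share called is near the background. The median log2 difference was -0.45 over the 31 members and -0.18 over all genes tested. With median-ratio scaling these medians were -0.37 and -0.02, and with scaling to the sum of nuclear genes -0.32 and 0.04. The calls over all genes shifted with the scaling, with 821 higher and 2646 lower in OE2 as deposited, 1240 higher and 1081 lower after median-ratio scaling, and 1424 higher and 526 lower after scaling to nuclear genes. Among members, ATMG01330, ATMG01380 and ATMG00520 were called lower under all 3.

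ATMG01330 had 0.858, 1.16 and 1.51 FPKM in OE2, 1.23, 1.64 and 2.04 FPKM in OE1, against 3.01, 5.54 and 3.21 FPKM in tt19-8. Every OE2 and OE1 library was below every tt19-8 library. Its log2 difference in OE2 against tt19-8 was -1.15 ± 0.23 (SE; limma, adjusted p = 0.0112). The nuclear locus AT2G07808, annotated as a pseudogene and 99.7% identical over 389 bases, averaged 2.16 FPKM beside 2.25 FPKM for ATMG01330, so the level of this row is uncertain.

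ATMG01380 had 1.69, 1.32 and 0.755 FPKM in OE2, 2.09, 1.67 and 0.928 FPKM in OE1, against 7.19, 6.59 and 2.50 FPKM in tt19-8. The groups did not overlap with tt19-8, and replicate 3 was the lowest of each group. Its log2 difference in OE2 against tt19-8 was -1.44 ± 0.33 (SE; limma, adjusted p = 0.0175). ATMG00520 had 0.542, 0.847 and 0.794 FPKM in OE2, 0.765, 1.26 and 1.13 FPKM in OE1, against 4.10, 2.18 and 1.56 FPKM in tt19-8. Again no OE2 or OE1 library reached tt19-8, and the log2 difference in OE2 was -1.01 ± 0.24 (SE; limma, adjusted p = 0.0219).

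ATMG01120 had 2.70, 2.48 and 4.41 FPKM in OE2, 2.79, 2.57 and 4.56 FPKM in OE1, against 14.6, 9.81 and 4.35 FPKM in tt19-8. Replicate 3 of tt19-8 lay below replicate 3 of OE2 and of OE1, so the groups overlapped. The log2 difference in OE2 was -1.23 ± 0.36 (SE; limma, adjusted p = 0.0387). This call was lost with median-ratio scaling (adjusted p = 0.0678), with scaling to nuclear genes (adjusted p = 0.0888) and without the filter on low values (adjusted p = 0.0783).

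The number of calls rested on single libraries. It was 0 without OE2 replicate 1, 1 without OE2 replicate 3, 1 without tt19-8 replicate 1, 1 without tt19-8 replicate 2 and 15 without tt19-8 replicate 3. The share of all tested genes called moved too. It was 2.94% without OE2 replicate 1, 4.33% without OE2 replicate 3, 7.02% without tt19-8 replicate 1, 5.74% without tt19-8 replicate 2 and 32.9% without tt19-8 replicate 3. Only ATMG01330 was called in all of these fits except the one without OE2 replicate 1.

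In 8 of 31 members the OE2 libraries did not overlap those of tt19-8, and OE2 was lower in all 8. They took in ATMG01330, ATMG01380 and ATMG00520. Over all tested genes 37.1% did not overlap and 27.7% did so with OE2 lower. ATMG00665 had the largest log2 difference of the tested members, -1.92 ± 0.79 (SE; limma, adjusted p = 0.112), and did not pass. The 2 highest rows were far from the threshold, with -0.38 ± 0.45 for ATMG00020 (adjusted p = 0.579) and -0.12 ± 0.44 for ATMG01390 (adjusted p = 0.864; SE, limma).

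In OE1 against tt19-8 no member passed the limma test, and 7 of 31 had an unadjusted p under 0.05, beside 3458 of 18232 genes. The lowest adjusted p among members was 0.175, and 0.0165% of all genes tested passed. The same 4 members had log2 differences of -0.87 ± 0.23 for ATMG01330, -1.26 ± 0.33 for ATMG01380, -0.76 ± 0.24 for ATMG00520 and -1.19 ± 0.36 for ATMG01120 (SE; limma, adjusted p between 0.175 and 0.183). The median log2 difference was -0.30 over members and -0.11 over all genes, and 23 of 31 members were below 0, beside 11410 of 18232 genes. In 4 members the libraries did not overlap, all with OE1 lower, beside 17.5% of all genes not overlapping and 13.3% with OE1 lower.

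Leaving out tt19-8 replicate 3 gave 10 members lower in OE1 than in tt19-8. In that fit 2346 of 18128 genes were called lower, and 17.3% of all genes were called in either direction. Replicate 3 of tt19-8 had the lowest value of its group in 25 of the 31 tested members, and tt19-8 replicate 1 the highest in 22. In OE2 and in OE1, replicate 1 was the lowest in 20 members each. Summed levels of markers for other tissues also differed among these libraries. The 4 root marker genes, all above 0 in every library, summed to 32.4 to 39.0 FPKM in OE2 and 42.7 to 52.5 FPKM in OE1. In tt19-8 they summed to 76.8, 72.8 and 49.2 FPKM. The 4 seed markers, also all above 0, summed to 21.6 to 75.1 FPKM in OE2, 3.26 to 74.2 FPKM in OE1 and 100.2 to 605.9 FPKM in tt19-8. The 5 leaf markers summed to 13899 to 19500 FPKM in OE2, 18157 to 26450 FPKM in OE1 and 19589 to 22290 FPKM in tt19-8. The part of tissue makeup in the differences of mitochondrial rows was not tested.

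**Figure D4:**
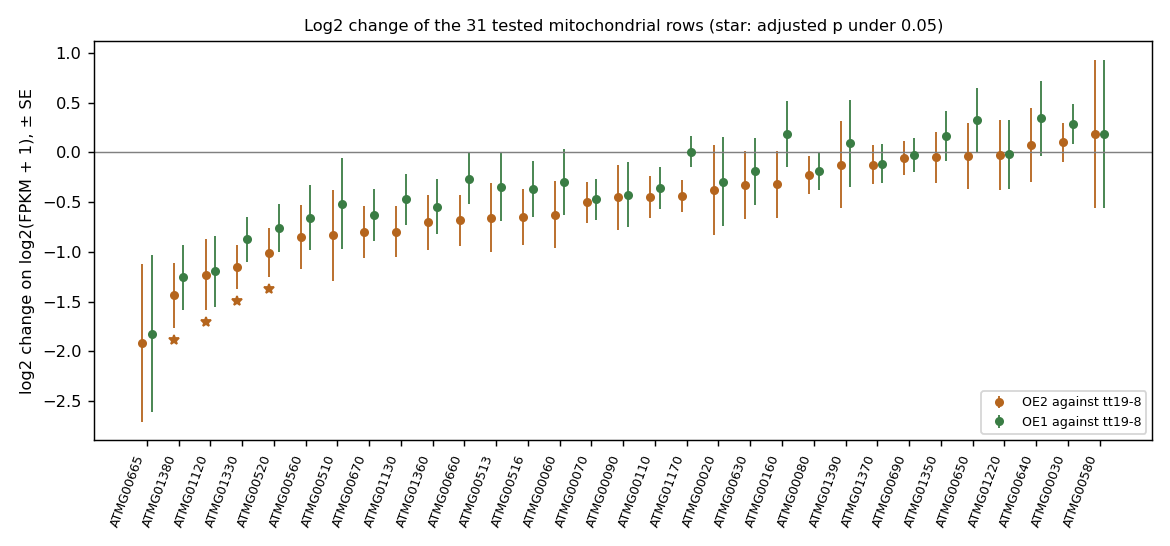
Log2 difference from tt19-8 on the log2(FPKM + 1) scale, with limma standard errors, of the 31 tested mitochondrial rows in OE2 and OE1, ordered by the OE2 value. Stars mark the 4 rows with an adjusted p under 0.05, all in OE2; 28 OE2 values and 23 OE1 values lie below 0.

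Between the overexpressing lines no member passed the limma test in OE2 against OE1, beside 1.43% of all genes. The fit had no term for the replicate number, so its SE took in spread that same-numbered OE2 and OE1 libraries share. A fit of OE2 and OE1 alone with such a term was not run. An unadjusted p under 0.05 was reached by 1 member, ATMG01170, with -0.45 ± 0.16 (SE; limma, adjusted p = 0.263). The libraries did not overlap in 2 members, both with OE2 lower, beside 21.8% of all genes, 14.7% with OE2 lower. All 31 log2 differences were below 0, with a median of -0.18 beside -0.07 over all genes. The direction depended on the scaling: 22 of 29 members were below 0 with median-ratio scaling, and 16 of 30 with scaling to the sum of nuclear genes, where the median over all genes was 0.14.

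Same-numbered libraries kept nearly constant ratios in most rows. In the 53 rows with at least 0.1 FPKM in the OE1 library, the ratio of OE2 to OE1 ran from 0.6215 to 1.0906 in replicate 1, from 0.6215 to 1.0527 in replicate 2 and from 0.6193 to 1.0813 in replicate 3. For ATMG00020 the ratios were 0.944, 0.940 and 0.941 in replicates 1, 2 and 3, although its OE1 level ran from 187 to 305 FPKM. For ATMG01170 they were 0.6999, 0.6949 and 0.6973. For ATMG00410 and ATMG01350 the ratio was the same to 4 decimals in all 3 replicates, 0.8239 and 0.7651.

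Over the 29 rows with at least 0.5 FPKM in every OE1 library, the highest of the 3 ratios was a median of 1.03 times the lowest, and it was under 1.1 times the lowest in 23 rows. The widest spread was in ATMG00640, with ratios of 1.0906, 0.6382 and 0.7103 in replicates 1, 2 and 3, followed by ATMG00665, with 1.057, 0.7854 and 0.9666. When each OE2 library was set against OE1 libraries of another number, the median was 2.68 and 2.65 times for the 2 ways of shifting the numbers, and 0 rows stayed under 1.1. No row at 0 in an OE2 library was above 0 in the same-numbered OE1 library. The reverse held in 2, 3 and 6 rows for replicates 1, 2 and 3. Of the low values of single-exon genes, 11.9% to 13.2% lay within 0.05 of a whole fragment in OE2 libraries. In OE1 and tt19-8 libraries these were 47.3% to 51.7%. Whether the OE2 values come from separate seedlings or were derived from the same material as OE1 was not tested.

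**Figure D5:**
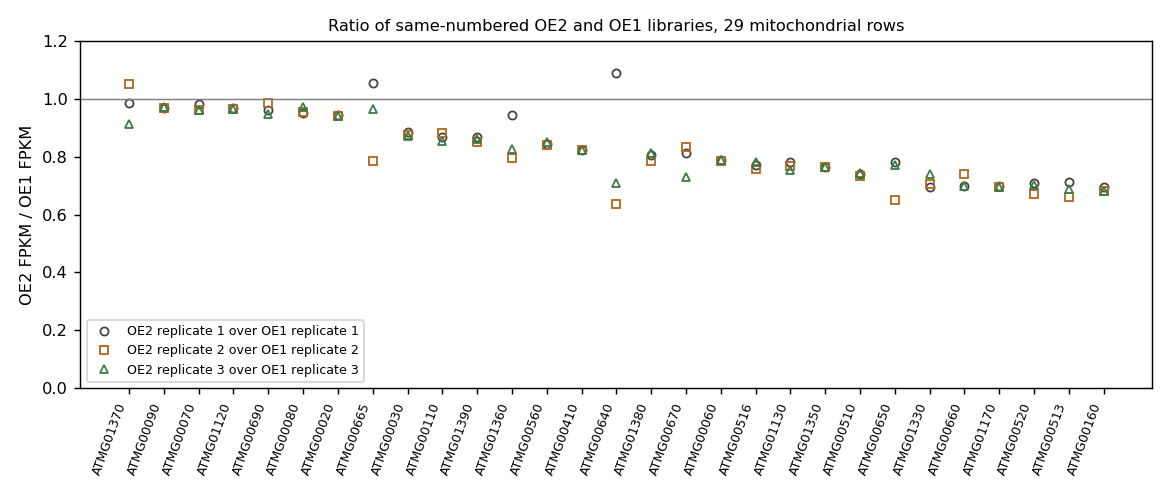
Ratio of OE2 FPKM to OE1 FPKM in same-numbered libraries (vertical, from 0) for 29 mitochondrial rows with at least 0.5 FPKM in every OE1 library, ordered by mean ratio; shapes are replicates 1, 2 and 3 and the line marks 1. In 23 rows the 3 ratios lie within 1.1 times of each other. Both the lowest ratio, 0.6382, and the highest, 1.0906, belong to ATMG00640, the row with the widest spread.

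Nuclear genes of mitochondrial function were set beside the mitochondrial rows. Of 28 nuclear respiratory chain subunits, all tested, 1 rose and 4 fell in OE2 against tt19-8, with a median of -0.28 over the list. These 5 of 28 stand beside 19.0% of all tested genes called and a median of -0.18 over all genes, so the share called is near the background. Without OE2 replicate 1, or without tt19-8 replicate 1, none rose and 1 fell, and without tt19-8 replicate 3, 3 rose and 12 fell. Of all tested genes, 2.94%, 7.02% and 32.9% were called in these fits, in that order. CI51, a subunit of complex I, averaged 123 ± 6.0 FPKM in OE2 against 201 ± 39 FPKM in tt19-8 (SD, n = 3 each), a log2 difference of -0.68 ± 0.17 (SE; limma, adjusted p = 0.0236). GAMMA CA2, a carbonic anhydrase-like subunit of complex I, averaged 23.5 ± 0.31 FPKM in OE2 against 15.9 ± 2.1 FPKM in tt19-8 (SD, n = 3 each), a log2 difference of 0.55 ± 0.14 (SE; limma, adjusted p = 0.0264). The other 3 that fell were AT5G08690, AT5G08680 and AT5G08670, near-identical genes of the ATP synthase beta subunit whose reads may be split between them, and they are uncertain. With scaling to the sum of nuclear genes 1 of the 28 rose and 1 fell, beside 10.7% of all tested genes called. CI51 no longer passed there (limma, adjusted p = 0.110).

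Of 12 nuclear genes for mitochondrial transcription and splicing, 10 were tested. In OE2 against tt19-8, 1 rose and 2 fell, beside 19.0% of all tested genes called. RPOTM, the mitochondrial RNA polymerase, averaged 16.1 ± 1.8 FPKM in OE2 against 27.7 ± 3.5 FPKM in tt19-8 (SD, n = 3 each), and fell by 0.75 ± 0.16 on the log2 scale (SE; limma, adjusted p = 0.0142). RPOTMP, the polymerase of mitochondria and plastids, averaged 3.90 ± 0.21 FPKM in OE2 against 7.36 ± 1.8 FPKM in tt19-8 (SD, n = 3 each), and fell by 0.75 ± 0.18 (SE; limma, adjusted p = 0.0215). NMAT2, a maturase that helps splice mitochondrial introns, rose, with 1.74 ± 0.17 FPKM in OE2 against 0.950 ± 0.059 FPKM in tt19-8 (SD, n = 3 each; limma, adjusted p = 0.0475). The call of NMAT2 was lost with a pseudocount of 0.1 FPKM, with only the compared groups in the fit and in 8 of the 9 fits that left out a library. With scaling to the sum of nuclear genes NMAT2 still passed (limma, adjusted p = 0.0242), while RPOTM (adjusted p = 0.0692) and RPOTMP (adjusted p = 0.0743) did not. None of the 10 passed without OE2 replicate 1, without OE2 replicate 3 or without tt19-8 replicate 2. Of all tested genes, 2.94%, 4.33% and 5.74% were called in these fits.

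Of 13 genes of alternative respiration, 9 were tested and none passed the limma test in OE2 against tt19-8. An unadjusted p under 0.05 was reached by 4 of the 9, beside 6446 of 18232 genes. Most of these genes let electrons bypass the proton-pumping complexes. NDA1, an alternative NAD(P)H dehydrogenase, averaged 3.89 ± 0.69 FPKM in OE2 against 2.09 ± 0.76 FPKM in tt19-8 (SD, n = 3 each; limma, adjusted p = 0.0573). AOX1A (AT3G22370), an alternative oxidase gene, averaged 32.1 ± 4.7 FPKM in OE2 against 22.9 ± 1.4 FPKM in tt19-8 (SD, n = 3 each; limma, adjusted p = 0.0762). Both had the higher mean in OE2, and the next 2 genes the lower one. NDB2, another such dehydrogenase, averaged 17.9 ± 0.29 FPKM in OE2 against 30.4 ± 11 FPKM in tt19-8 (SD, n = 3 each; limma, adjusted p = 0.0527). PUMP1 (AT3G54110), a mitochondrial uncoupling protein, averaged 62.4 ± 5.9 FPKM in OE2 against 86.5 ± 11 FPKM in tt19-8 (SD, n = 3 each; limma, adjusted p = 0.0562). With either of the other scalings 2 of the 9 rose, NDA1 and AOX1A, and none fell. With the replicate number as a block these 2 rose and NDB2 and PUMP1 fell, and without tt19-8 replicate 3 only NDB2 and PUMP1 passed, both lower. Of all tested genes, 12.7% were called with median-ratio scaling and 10.7% with scaling to nuclear genes. The shares were 26.7% with the block and 32.9% without tt19-8 replicate 3.

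In OE1 against tt19-8 no gene of the 3 lists passed with all libraries. Without tt19-8 replicate 3, 2 respiratory chain subunits rose and 8 fell, 2 genes of transcription and splicing fell, and 1 of alternative respiration, NDB2, fell. In that fit 17.3% of all tested genes were called. In OE2 against OE1 no gene of the lists passed either. NDA1 was higher in OE2 with the replicate number as a block (0.90 ± 0.12 on the log2 scale, SE, limma, adjusted p = 0.0240). That fit also held tt19-8, whose numbers do not pair with those of OE2 and OE1. NDA1 also passed with scaling to the sum of nuclear genes and without tt19-8 replicate 3. GAMMA CA2 was higher in OE2 than in OE1 with both other scalings, without the filter, with only the compared groups in the fit and without tt19-8 replicate 3. With both other scalings AT5G67590 was higher too, and in the last 2 of those settings AT5G08690 was lower. Of all tested genes, 1.83% were called in OE2 against OE1 with the block, 2.18% with median-ratio scaling and 3.35% with scaling to nuclear genes. The shares were 2.1% without the filter, 1.98% with only the compared groups and 2.58% without tt19-8 replicate 3. Most of these calls were higher in OE2, from 613 of 613 with scaling to nuclear genes to 326 of 467 without tt19-8 replicate 3.

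Rows of nuclear chromosome 2 with identifiers that start with AT2G07, which take in the mitochondrial insertion and its neighbours, numbered 226. Their share of FPKM was 0.0223% ± 0.00126 in OE2, 0.0233% ± 0.00139 in OE1 and 0.0302% ± 0.00383 in tt19-8 (SD, n = 3 each). Both lines lay below tt19-8 in every library, with an exact permutation p of 0.1 each, the smallest that this design allows, and 0.15 when adjusted over the 3 comparisons. Of 20 such rows tested, 7 were lower in OE2 than in tt19-8, beside 14.5% of all genes, and none was called in OE1 against tt19-8 or in OE2 against OE1. The count of rows called lower was 3 with median-ratio scaling, 1 with scaling to the sum of nuclear genes and 0 without OE2 replicate 1. Of all tested genes, 1081 of 18229, 526 of 18302 and 335 of 18012 were called lower in these fits. Without tt19-8 replicate 3, 1 of 19 was higher and 8 lower in OE2 than in tt19-8, and 1 was higher and 4 lower in OE1 than in tt19-8. That fit called 32.9% of all tested genes in OE2 and 17.3% in OE1 against tt19-8. Of the 7, the notes tie only AT2G07667 to an ATMG identifier, and the notes do not cover every copy. AT2G07050 and AT2G07360, which no note ties to an ATMG identifier, averaged 50.7 and 65.9 FPKM in OE2, against 80.5 and 116 FPKM in tt19-8. They had the highest levels of the AT2G07 rows tested. The share of AT2G07 rows given above therefore rests largely on genes that no note ties to a mitochondrial copy.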

How the data were processed

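The members, the gene lists and the tests were chosen with earlier results of these data known. FPKM values were made by the authors and deposited in 1 file per library; per the submitters' processing notes, HISAT 0.1.6, edgeR and the build TAIR10 were used, with no role given for each. Gene lengths, library totals and filters are not given in the sources used here. Values were taken as log2(FPKM + 1) of the deposited FPKM, for the 18232 genes that reached 1 FPKM in 3 or more libraries, which understates changes of low genes. All 9 libraries entered 1 limma 3.58.1 fit (R 4.3.3; trend and robust eBayes), with Benjamini-Hochberg adjustment over all genes and a threshold of 0.05. The fit was tested on simulated data with 200 changed genes, all above a minimum mean level, and with independent errors. That test therefore does not cover changes in low rows or the correlation of OE2 with OE1. Shares were compared by exact permutation (scipy 1.17.1).

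Alternatives were a pseudocount of 0.1, no filter, 2 other scalings, fits of the compared groups alone, the replicate number as a block, and each library left out. Whether equal replicate numbers pair libraries was checked by correlating deviations from group means. The correlation was 0.953 to 0.959 for same-numbered pairs of OE2 with OE1, and between -0.587 and -0.294 for pairs of unlike number. These numbers therefore pair the libraries. For same-numbered pairs with tt19-8 it was between -0.059 and 0.043, so these do not.

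Values per library are given for the 10 highest members, for members past the threshold and for up to 3 named members of each role class; those of the lowest levels are given as means. From the other lists, genes with the smallest adjusted p are named. Nuclear copies were matched with BLAST+ 2.17.0 to RefSeq TAIR10.1, whose mitochondrial genome may differ from that behind the files. A mitochondrial gene was tied to a nuclear locus where at least 80% of a coding part of at least 150 bases lay in it. Figures were drawn with matplotlib 3.10.9.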

Additional observations from a re-analysis of the deposited data

How the results depend on the processing

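Leaving out each library in turn moved the count of mitochondrial rows called between 0 and 10 in OE1 against tt19-8, where all libraries gave 0, and between 0 and 15 in OE2 against tt19-8, where all libraries gave 4. In both, the highest count was without tt19-8 replicate 3, and the 0 in OE2 against tt19-8 was without OE2 replicate 1. The share of all tested genes called moved too. Without tt19-8 replicate 3 it was 17.3% in OE1 and 32.9% in OE2 against tt19-8, beside 0.0165% and 19.0% with all libraries. Without OE2 replicate 1 it was 2.94% in OE2 against tt19-8. Other settings gave 3 to 6 calls in OE2 against tt19-8: 4 with a pseudocount of 0.1 FPKM, 6 of 101 without the filter, 3 with each of the other scalings and 4 with the 2 groups alone. The shares of all tested genes called were 18.3% with the pseudocount and 12.9% without the filter. They were 12.7% with median-ratio scaling, 10.7% with scaling to nuclear genes and 14.7% with the 2 groups alone. These settings gave 0 members in OE1 against tt19-8, beside at most 0.0164% of all genes. Every setting gave 0 members in OE2 against OE1, beside 0.272% to 3.35% of all genes. With the replicate number as a block, the counts were 5 for OE2 against tt19-8, 0 for OE1 against tt19-8 and 0 for OE2 against OE1. The shares of all tested genes called were 26.7%, 0.0878% and 1.83%. The numbers pair OE2 with OE1, but this fit also held tt19-8, whose numbers do not pair. A block fit of OE2 and OE1 alone was not run, so what the pairing alone would give is not known. In OE2 against tt19-8, the block ended the call of ATMG01120 (adjusted p = 0.070, limma) and added ATMG00665 and ATMG01170. For the log2 changes of single members named, 596 values kept their side of the threshold, 14 newly passed, 19 no longer passed and none reversed a call. The difference in mitochondrial share between groups, not the share itself, moved by less than the larger of the 2 groups' SDs under each alternative run, among them leaving out the 2 highest identifiers, chosen after seeing the data. It changed sign without tt19-8 replicate 1, to 0.0071 percentage points for OE2 and 0.00467 for OE1. The share without ribosomal and transfer RNA rows was not run, because no ATMG identifier is paired with such a gene here. Low fragment counts limit what can be seen in the 115 rows not tested.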
